A study of Mus musculus with 22 samples.

Results

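The whole-tissue RNA (total-RNA) of the mouse prefrontal cortex (PFC) was compared between mice given ethanol (EtOH) and saline (Control): 4 EtOH_total-RNA libraries against 3 Control_total-RNA libraries, 7 of the 22 libraries of the series, chosen by treatment and fraction alone. The mice were males of 8 to 12 weeks that all carried both a tetracycline-controlled EGFP-Rpl10a gene and a CaMKIIα-tTA driver on a C57BL/6J background, so that the controls too made tagged ribosomes in CaMKIIα-expressing cells. EtOH mice received 2 g/kg of ethanol a day, split over 2 injections 2 h apart, on each of 4 days, Control mice received saline, and the tissue was taken 2 h after the last injection. Total-RNA came from the same cleared homogenate (the supernatant after centrifugation) as the ribosome pull-down (TRAP) but without selection, so that it is not limited to one cell type of the piece dissected. Libraries of other groups enter through the filter on low counts, through fits over 11 or 22 libraries given as alternatives, and through values named as theirs: the TRAP libraries of the same 7 mice, and both fractions of 4 mice that received EtOH with the PARP inhibitor ABT-888 at 25 mg/kg on day 4.

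As background, alcohol injections are a stressor that raises circulating glucocorticoids, and the glucocorticoid receptor is a transcription factor that switches on a well-known set of genes in neurons, glia and vessels within hours. Microglia, the resident macrophages of the brain, are recognised by transcripts such as P2ry12, Tmem119 and Cx3cr1, which they keep high in the undisturbed state and lower when they react. Ethanol also lowers body temperature, and the RNA-binding proteins Cirbp and Rbm3 are known to be induced by mild cooling while heat shock chaperones are induced by warming.

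The 7 libraries held between 22132534 and 31606619 counted reads. Pearson's r of log2 CPM (reads of a gene per megaread counted) across transcripts, which are not independent replicates, lay between 0.991 and 0.992 within Control, between 0.978 and 0.985 within EtOH and between 0.962 and 0.982 between the groups. EtOH replicate 4 stood apart: on the first principal component, which took 53.2% of the variance, it lay at 4.75 while the other EtOH libraries lay between 23.8 and 37.5 and the Control libraries between -31.6 and -29.7. The excitatory neuron genes Camk2a (2254, 2261 and 1837 CPM) and Slc17a7 (932, 995 and 773 CPM) were abundant in the Control libraries, both named after their values were seen. They do not show that the tissue was confined to cortex. Striatal markers were also present, with the 11 tested summing to between 1807 and 2279.8 CPM in Control and between 1990.5 and 2849 CPM with EtOH, and the marker of the choroid plexus Ttr reached 99.4 CPM in Control replicate 2 against 3.36 and 10.1 CPM in the other Control libraries.

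Of the 14072 transcripts tested, 2482 (17.6%) differed at an adjusted p below 0.05 in edgeR (quasi-likelihood fit, Benjamini-Hochberg) and are called here. Of these, 1272 (9.04% of those tested) were higher with EtOH and 1210 (8.60%) were lower. The changes were mostly moderate, since the median absolute log2 fold change was 0.63 among the higher and 0.62 among the lower transcripts, and 297 and 182 of them changed by a log2 fold change of 1 or more. The EtOH and Control libraries did not overlap for 1176 of the higher and 1169 of the lower transcripts, where 4300 transcripts (30.6%) of all tested did not overlap. The count depended on the libraries. It was 943, 878 and 1226 without Control replicate 1, 2 or 3, 1628 without EtOH replicate 2, and 3616 without EtOH replicate 4, and it was 151 in a single fit over all 22 libraries. Of the 169 called transcripts named here, 97 were called in each of the 7 fits that left out a library. Acss1, Grm8, Kcng1, Ndufs8 and Srsf2 were called in 1 of them, and Abcc9, Acss2, Btg2, Clk1, Flt1, Gabrd, Gclc, Gfap, Gpr17, Homer1, Kcna5, Lss, Nts, Parp1, Sox9 and Tra2a in 2.

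**Figure D1:**
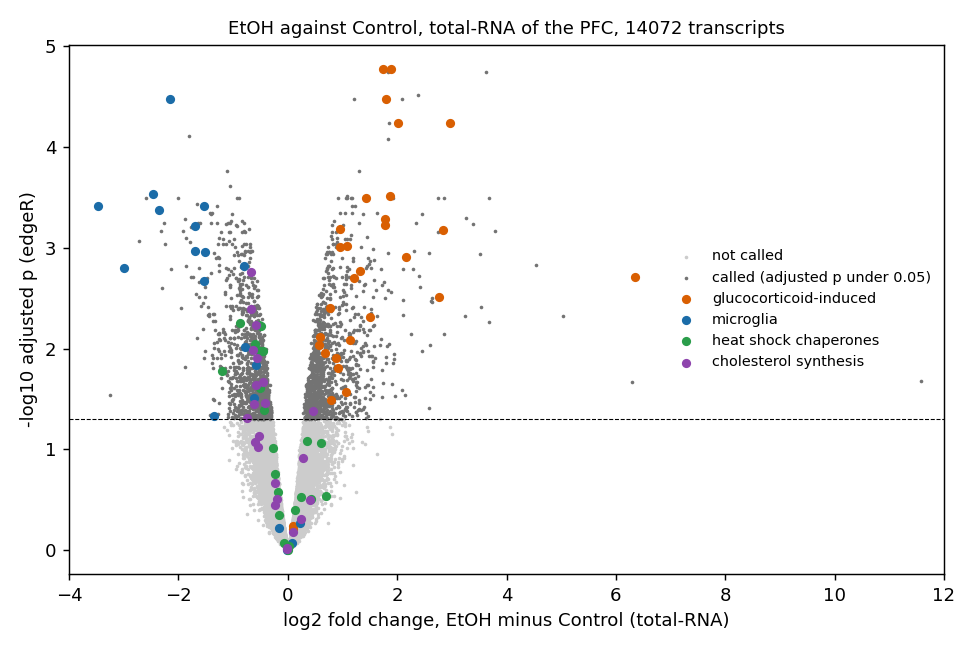
Each point is one of the 14072 transcripts, with the fitted log2 fold change (EtOH minus Control, total-RNA) on the x axis and -log10 of the adjusted p-value on the y axis; the dashed line is an adjusted p of 0.05. Coloured points are members of 4 gene lists: 28 of 30 glucocorticoid-induced transcripts lie above the line on the right, while 15 of 19 microglial, 9 of 22 heat shock and 10 of 23 cholesterol synthesis transcripts lie above it on the left.

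The transcripts with the smallest p-values that rose were Sgk1, Fkbp5 and Zfp189. Sgk1 (mm10 chromosome 10, 21882184 to 21999903), a kinase that controls ion channels and transporters, stood at 64.6, 59.1 and 53.3 CPM in the Control libraries and at 201, 267, 202 and 199 CPM in the EtOH libraries. Every EtOH library was thus above every Control library by a wide margin, and the log2 fold change was 1.88, SE 0.13, adjusted p = 1.67e-05. Fkbp5 (chromosome 17, 28399094 to 28517527), a co-chaperone that dampens the glucocorticoid receptor, went from 31.04, 26.8 and 37.2 CPM to 104, 109.6, 106 and 104 CPM, a log2 fold change of 1.74, SE 0.12, adjusted p = 1.67e-05. Short genes overlap it on the other strand, and since the strand setting of the counting is not given in the sources used here, reads of both would be counted together if strand was not used. The same holds for 55 of the 169 called genes named here, of which only some partners are named. Zfp189, a zinc finger transcription factor, rose from a mean of 10.1 ± 1.01 CPM in the 3 Control libraries (SD) to 36.3 ± 3.65 CPM in the 4 EtOH libraries. The smallest p-values among the decreases belonged to P2ry13, Ddit4l and Car2, described with their groups.

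Sgk1 and Fkbp5 belong to a list of 30 genes known to be induced by glucocorticoids. Like the other lists here, it was chosen with earlier results of these data known, so its counts are a description and no independent test. Of the 30, 28 rose, where 9.04% of all transcripts did, and the median log2 fold change was 1.27 against 0.00 over all transcripts. Bcl6 and Gpd1, the other two, named after their values were seen, had log2 fold changes of 0.10 and 0.09. Leaving out any single library gave between 23 and 28 calls, and the fit over all 22 libraries gave 16. Against the Control mean, the list's median lay 1.17, 1.34, 1.49 and 1.04 higher on the log2 scale in EtOH replicates 1 to 4, so that replicate 4, which stood apart on the principal component, was the lowest but still lay above Control.

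Within this list the members fell into several roles. Among brakes on signalling, Ddit4, which inhibits mTOR, rose from 18.3, 15.5 and 16.1 CPM to 49.9, 73.2, 54.3 and 52.2 CPM (log2 fold change 1.79, adjusted p = 3.36e-05). Tsc22d3, the leucine zipper protein GILZ that restrains inflammatory transcription, had a log2 fold change of 1.09, adjusted p = 9.53e-04. The inhibitor of NF-κB Nfkbia rose as well (1.43, adjusted p = 3.22e-04), as did the cell cycle inhibitor Cdkn1a, from a mean of 15.01 ± 1.43 CPM in the 3 Control libraries (SD) to 60.5 ± 14.1 CPM in the 4 EtOH libraries. Among metabolic members, the lipid droplet protein Plin4 rose from 7.19, 0.593 and 3.07 CPM to 27.96, 18.1, 24.6 and 25.6 CPM, with Control libraries that differed widely among themselves, and the lipoprotein lipase inhibitor Angptl4 had a log2 fold change of 2.84, adjusted p = 6.62e-04. Plin4 overlaps Hdgfl2 on the other strand. Among transcription factors, Cebpd, which drives acute-phase genes and overlaps Spidr on the other strand, rose from 0.883, 1.22 and 0.855 CPM to 8.95, 8.95, 7.96 and 5.22 CPM (log2 fold change 2.98, adjusted p = 5.74e-05), a change without overlap at a low level. Rasd1, a small G protein first found as induced by dexamethasone, had a log2 fold change of 2.16, adjusted p = 0.00124. Tsc22d3, Nfkbia, Cdkn1a and Angptl4 are named after their values were seen.

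**Figure D2:**
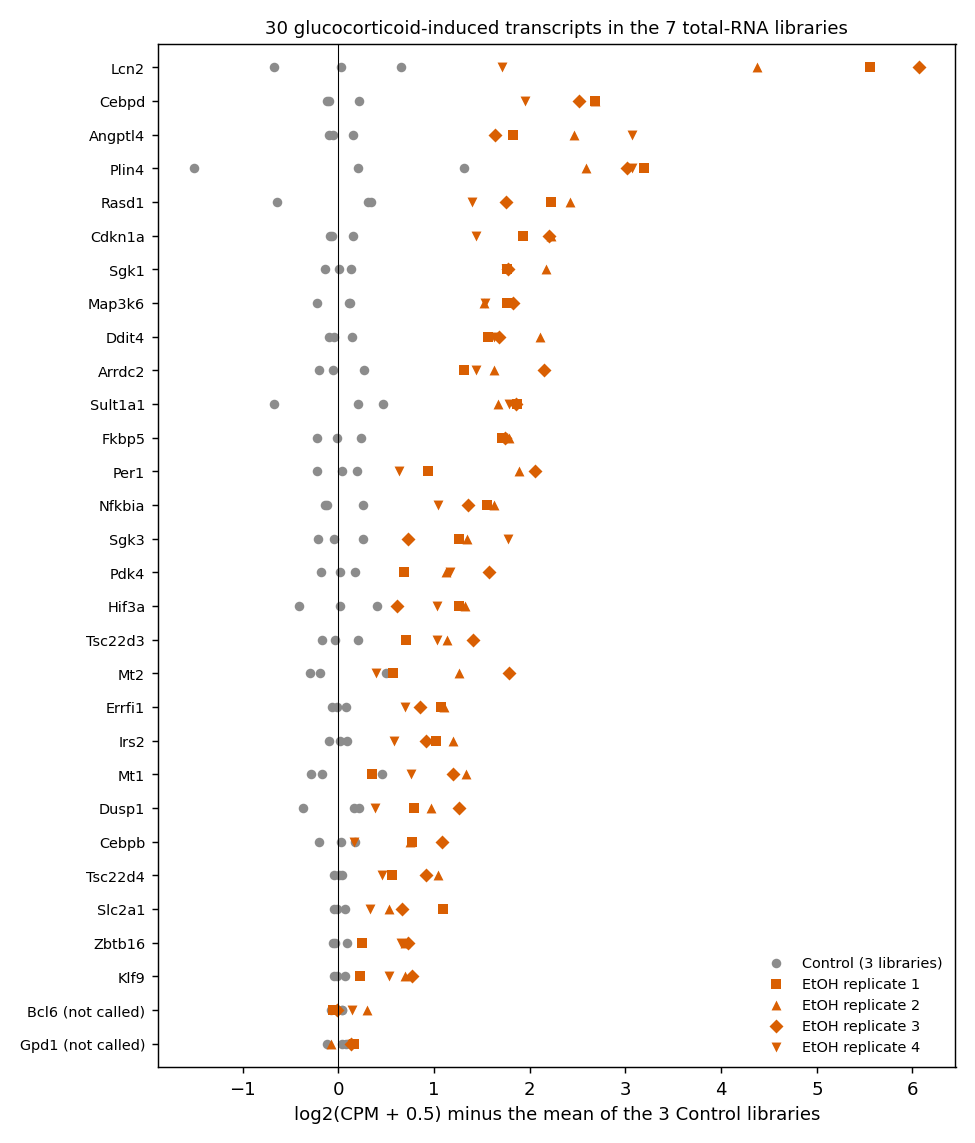
The x axis gives log2(CPM + 0.5) of each library minus the mean of the 3 Control libraries for the 30 glucocorticoid-induced transcripts, ordered by log2 fold change; grey circles are Control and coloured symbols the 4 EtOH libraries. For Sgk1, Fkbp5, Ddit4 and Cdkn1a every EtOH symbol lies beyond every Control circle, Lcn2 spreads widest among the EtOH libraries, and Bcl6 and Gpd1 overlap with Control.

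The promoters of 10451 tested genes, in 13509 windows from 250 bases before to 50 bases after a RefSeq start site (build GRCm38.p6), were searched on both strands for 4 short motifs. The glucocorticoid receptor half-site AGAACA was in 12.3% of all windows, in 12.6% of those of transcripts called higher and in 11.5% of those called lower, and in 5 of 32 windows of the called glucocorticoid-induced genes. The E-box CACGTG, bound by the clock proteins, was in 9.68% of all windows, 11.5% of the higher and 9.30% of the lower, and in 6 of 8 windows of the called clock genes. The cyclic AMP response element TGACGTCA was in 2.97%, 2.85% and 3.02%, and the heat shock motif GAANNTTC in 5.59%, 4.63% and 6.45% of the same 3 sets, the latter with 5 of 10 windows of the called heat shock chaperones. Shares among higher and lower transcripts thus lay close to those of all windows, and those of the small lists are counts of few windows. Windows of a gene are not independent. Several of the half-site windows of the glucocorticoid-induced genes belong to Sgk1. The heat shock windows include overlapping windows of Hsph1 that hold the same match. The windows below belong to the glucocorticoid-induced genes with the smallest p-values that held a match, and are shown because Sgk1 and Fkbp5 lead the response. Capitals mark every match on either strand (TGTTCT is AGAACA read on the other strand). In the last of the Sgk1 windows 2 half-sites face each other 3 bases apart, 189 and 180 bases before the start, as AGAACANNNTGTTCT. It was the only one of the 13509 windows with that arrangement, which was searched for after the window was seen. There the heat shock match overlaps the paired half-sites and the E-box overlaps a further half-site.
Sgk1, chr10:21881934-21882233, plus strand: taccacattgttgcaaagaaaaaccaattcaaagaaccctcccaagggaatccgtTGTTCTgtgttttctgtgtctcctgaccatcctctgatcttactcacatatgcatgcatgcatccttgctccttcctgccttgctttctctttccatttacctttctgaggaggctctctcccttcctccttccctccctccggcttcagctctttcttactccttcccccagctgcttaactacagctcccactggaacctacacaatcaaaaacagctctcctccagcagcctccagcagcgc
Sgk1, chr10:21985854-21986153, plus strand: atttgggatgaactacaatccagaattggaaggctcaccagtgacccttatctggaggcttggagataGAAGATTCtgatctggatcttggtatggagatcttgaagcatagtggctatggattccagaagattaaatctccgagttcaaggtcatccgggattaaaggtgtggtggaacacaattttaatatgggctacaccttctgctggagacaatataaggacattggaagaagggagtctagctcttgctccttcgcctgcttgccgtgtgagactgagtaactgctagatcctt
Sgk1, chr10:21991973-21992272, plus strand: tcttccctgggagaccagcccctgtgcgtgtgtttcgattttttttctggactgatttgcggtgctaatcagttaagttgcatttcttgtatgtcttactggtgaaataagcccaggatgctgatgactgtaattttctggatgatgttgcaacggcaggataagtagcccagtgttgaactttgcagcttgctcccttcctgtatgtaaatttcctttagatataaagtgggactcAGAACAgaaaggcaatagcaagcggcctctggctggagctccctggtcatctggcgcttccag
Sgk1, chr10:21993640-21993939, plus strand: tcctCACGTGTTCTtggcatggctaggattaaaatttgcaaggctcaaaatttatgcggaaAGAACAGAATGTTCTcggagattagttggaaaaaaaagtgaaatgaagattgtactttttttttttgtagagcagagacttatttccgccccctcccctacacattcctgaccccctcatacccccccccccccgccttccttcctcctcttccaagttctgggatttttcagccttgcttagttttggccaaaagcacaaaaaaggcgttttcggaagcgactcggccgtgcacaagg
Fkbp5, chr17:28486100-28486399, minus strand: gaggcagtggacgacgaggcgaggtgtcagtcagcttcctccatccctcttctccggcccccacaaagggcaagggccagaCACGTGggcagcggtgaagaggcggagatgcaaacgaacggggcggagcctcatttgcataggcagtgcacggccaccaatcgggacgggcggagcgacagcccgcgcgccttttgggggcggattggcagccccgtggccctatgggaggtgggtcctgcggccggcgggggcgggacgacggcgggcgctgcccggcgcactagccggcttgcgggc
Sult1a1, chr7:126676369-126676668, minus strand: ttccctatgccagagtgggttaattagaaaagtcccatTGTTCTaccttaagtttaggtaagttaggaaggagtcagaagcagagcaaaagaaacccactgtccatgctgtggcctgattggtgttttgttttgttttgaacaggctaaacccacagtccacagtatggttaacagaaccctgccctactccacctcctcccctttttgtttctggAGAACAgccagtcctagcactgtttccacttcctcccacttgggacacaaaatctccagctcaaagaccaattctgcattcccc

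The largest fold changes among transcripts with at least 5 CPM on average and no overlap were led by 2 secreted acute-phase proteins. Saa3 had no count in any Control library and 1231, 12, 423 and 2 counts in EtOH replicates 1 to 4, which is at least 424-fold higher when the pooled EtOH level is set against 3 counts over the Control group. That level rested mostly on EtOH replicate 1, without which 437 counts in 3 libraries put the bound at 156-fold. Lcn2 (chromosome 2, 32384633 to 32388252), lipocalin 2, an iron-binding protein of reactive astrocytes and vessels, had 18, 9 and 0 counts in Control and stood at 37.2, 16.1, 53.2 and 2.11 CPM with EtOH (log2 fold change 6.36, SE 1.03, adjusted p = 0.00197). With 1 library left out this log2 fold change ran from 5.70 to 7.46. Saa3 and Lcn2 were thus highest in EtOH replicates 1 and 3 and lowest in replicate 4. The call of Saa3 was lost when Control replicate 1, 2 or 3 was left out, with adjusted p-values of up to 0.0715. Ccl2, the chemokine that attracts monocytes, was of the same kind, at 19.3, 3.18, 0.664 and 0 CPM with EtOH against at most 0.158 CPM in Control. It was called (adjusted p = 0.0214) although EtOH replicate 4 was at 0 and the groups overlapped, and its call too was lost without any one of the Control libraries.

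Other large increases are named under the same rule, which takes only transcripts without overlap. Scn10a, a sodium channel best known from sensory neurons, stood at 0.799, 0.418 and 1.11 CPM in Control and at 10.01, 9.65, 9.79 and 9.21 CPM with EtOH (log2 fold change 3.62, SE 0.27, adjusted p = 1.79e-05). Ddc, the decarboxylase that makes dopamine and serotonin from their precursors and overlaps 1700042O10Rik on the other strand, went from 2.19, 2.44 and 2.98 CPM to 15.6, 13.02, 11.4 and 13.02 CPM (log2 fold change 2.38, SE 0.19, adjusted p = 3.03e-05). For both, the 4 EtOH libraries lay close together and far above Control. Apod, a lipid-binding apolipoprotein of glia that rises in many kinds of brain injury, was the most abundant of this group and rose from a mean of 121 ± 7.56 CPM in the 3 Control libraries (SD) to 513 ± 123 CPM in the 4 EtOH libraries. Agt, angiotensinogen, which astrocytes make, rose from 3.87, 4.04 and 7.98 CPM to 39.8, 16.2, 18.8 and 30.4 CPM. The oncostatin M receptor Osmr had a log2 fold change of 2.74, adjusted p = 6.97e-04, the protease inhibitor Ctla2a of 3.27, adjusted p = 5.03e-04, the proteoglycan core protein serglycin Srgn of 2.11, adjusted p = 0.00329, and the Notch ligand Dlk1 of 2.64, adjusted p = 0.00345. Absence of overlap was a condition for naming these genes. Osmr, Ctla2a and Srgn were lowest in EtOH replicate 4 among the EtOH libraries.

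Genes of microglia fell together. Of 19 microglial markers, 15 were called lower, where 8.60% of all transcripts were, and the median log2 fold change was -1.51. Their summed level lay between 581 and 599 CPM in Control and between 258 and 385 CPM with EtOH, without overlap. This was not particular to microglia. Summed mural cell markers did not overlap either (142 to 154 CPM in Control, 101 to 121 CPM with EtOH). Nor did those of inhibitory neurons, which were higher with EtOH (969 to 1025 CPM in Control, 1056 to 1125 CPM with EtOH). In RNA of a whole tissue, fewer cells of a type and less RNA of a gene per cell cannot be told apart. The purinergic receptor P2ry12 (chromosome 3, 59216272 to 59262871), through which microglia sense ATP and ADP, stood at 46.5, 48.6 and 48.7 CPM in Control and at 6.14, 5.25, 11.3 and 15.4 CPM with EtOH (log2 fold change -2.35, SE 0.28, adjusted p = 4.19e-04). Its neighbour P2ry13 went from 12.7, 12.1 and 14.7 CPM to 3.01, 2.74, 2.49 and 3.67 CPM (-2.15, SE 0.18, adjusted p = 3.36e-05). Both P2Y receptors lie within Med12l on the other strand. The lysophospholipid receptor Gpr34 (chromosome X, 13632089 to 13640858), which lies within Cask on the other strand, fell from a mean of 16.2 ± 2.51 CPM in the 3 Control libraries (SD) to 1.53 ± 1.37 CPM in the 4 EtOH libraries. The fractalkine receptor Cx3cr1, which overlaps Wdr48, Ttc21a and other genes on the other strand, stood at 55.2, 59.7 and 51.9 CPM in Control and 7.79, 9.68, 5.76 and 17.3 CPM with EtOH (-2.47, SE 0.26, adjusted p = 2.96e-04), and Tmem119, a membrane protein specific to microglia, at 11.3, 11.2 and 11.3 CPM and 4.05, 3.09, 3.61 and 4.90 CPM (-1.53, SE 0.18, adjusted p = 3.84e-04). For each of these 5 genes the highest EtOH library was replicate 4, and it still lay below the lowest Control library. Further members that fell were Fcrls, an Fc receptor-like protein of microglia (-2.99, adjusted p = 0.00160), the calcium-binding protein Aif1 (-1.69, adjusted p = 0.00107), the lipid receptor Trem2 (-1.70, adjusted p = 6.03e-04) and the growth factor receptor Csf1r (-0.80, adjusted p = 0.00152), the last 3 of these named after their values were seen. Olfml3, an extracellular protein that microglia also make, fell as well (-1.78, adjusted p = 6.24e-04).

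The 4 microglial markers that were not called are complement and lysosomal genes of these cells, which are named after their values were seen. C1qa, a chain of the first complement component, stood at 23.01, 20.3 and 19.5 CPM in Control and at 30.2, 14.2, 26.002 and 17.5 CPM with EtOH. C1qb had values of 29.9, 24.8 and 27.8 CPM and 34.9, 18.7, 39.9 and 15.7 CPM, and the lysosomal protease Ctss of 47.03, 42.2 and 51.5 CPM and 77.2, 40.4, 65.6 and 34.3 CPM. In all 3 genes EtOH replicates 1 and 3 lay above every Control library and replicates 2 and 4 below, so the groups overlapped. Their log2 fold changes, with C1qc, lay between -0.16 and 0.21, beside -3.47 to -0.57 for the 15 called. EtOH replicates 1 and 3 were also the libraries with the most Saa3 and Lcn2. In the fit over all 22 libraries 2 of the 19 markers were called lower.

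**Figure D3:**
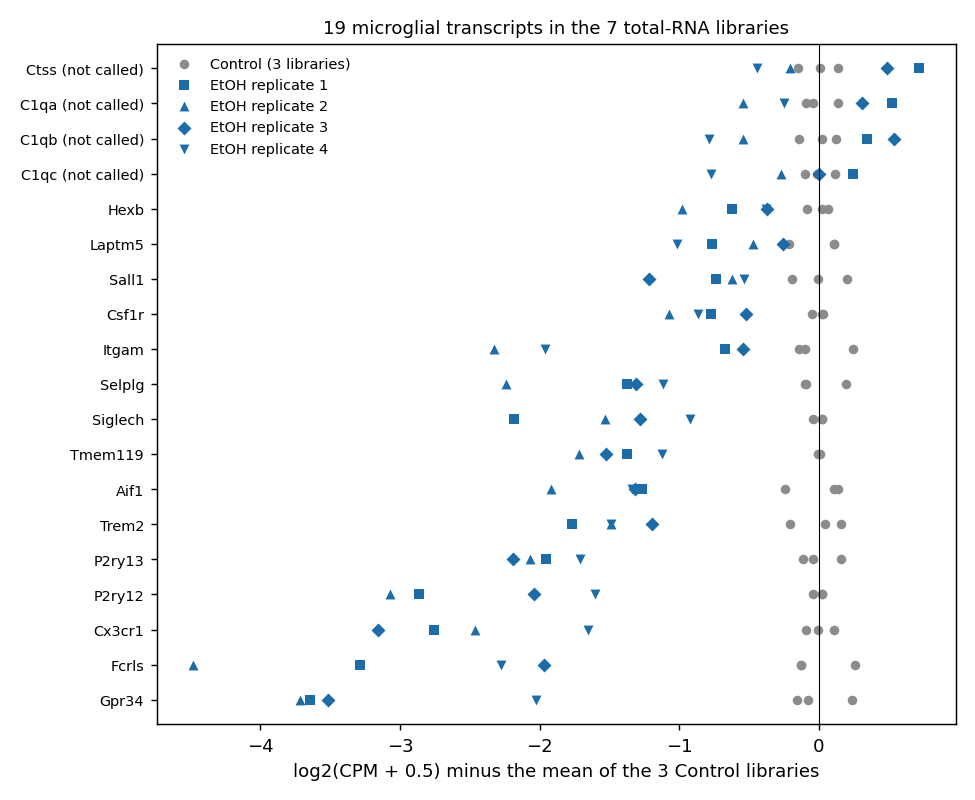
The x axis gives log2(CPM + 0.5) of each library minus the mean of the 3 Control libraries for 19 microglial transcripts, ordered by log2 fold change; grey circles are Control and coloured symbols the 4 EtOH libraries. Gpr34, Cx3cr1, P2ry12 and P2ry13 near the bottom lie between 1 and 4 units below the Control mean in all 4 EtOH libraries, while C1qa, C1qb, C1qc and Ctss at the top scatter on both sides of Control.

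Transcripts of inflammation moved in both directions. Of 15 cytokines, chemokines and their receptors or factors, 3 rose and 3 fell, where 9.04% and 8.60% of all transcripts did. These counts were 1 to 3 and 2 to 4 when 1 library was left out, with 1 higher without Control replicate 1 or 2, and the fits over 11 and 22 libraries gave 1 and 0 in each direction. Besides Ccl2, the endosomal RNA sensor Tlr7 rose from 7.19, 4.74 and 7.95 CPM to 13.2, 13.5, 13.9 and 12.6 CPM (log2 fold change 1.01, adjusted p = 0.00358), and Tgfb2 rose by less (0.51, adjusted p = 0.0319). Cx3cl1, the neuronal ligand of Cx3cr1, fell from 651, 709.8 and 614 CPM to 406, 402, 488 and 411 CPM (-0.62, adjusted p = 0.00199). Il34, a ligand of Csf1r on which microglia depend and which neurons make, fell too (-0.56, adjusted p = 0.0110), and so did Il33, an alarmin of glia (-0.78, adjusted p = 0.00890). Cx3cl1 and Il34 thus fell in total-RNA, as did their receptors, but a link between them was not tested. In TRAP of the same mice neither ligand was called with EtOH (Cx3cl1 -0.39, adjusted p = 0.13, and Il34 -0.14, adjusted p = 0.66). Ighm, the heavy chain of immunoglobulin M, was also among the largest decreases, from 28.4, 31.4 and 15.6 CPM to 2.45, 3.66, 6.68 and 3.99 CPM (-2.59, adjusted p = 3.22e-04).

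Markers of other cell types had median log2 fold changes between -0.48 and 0.16, and the fit over all 22 libraries called no marker of oligodendrocytes, their precursors, astrocytes, endothelial and mural cells, fibroblasts or neurons. Oligodendrocyte markers split, with 2 of 15 higher and 5 lower, beside 9.04% and 8.60% of all transcripts. When 1 library was left out, 1 to 4 were higher, with 4 without EtOH replicate 4 and 1 without any one of the Control libraries or EtOH replicate 3, and 4 to 6 were lower. Car2, carbonic anhydrase II, fell with little spread, from 129, 131 and 131 CPM to 60.2, 52.4, 58.3 and 71.4 CPM (log2 fold change -1.11, SE 0.11, adjusted p = 1.72e-04). Ugt8a, which makes the myelin lipid galactocerebroside, fell from a mean of 67.4 ± 6.28 CPM in the 3 Control libraries (SD) to 28.1 ± 7.75 CPM in the 4 EtOH libraries, and the gap junction protein Gjb1 (-1.26, adjusted p = 0.00147) and the cytoskeletal protein Ermn (-0.87, adjusted p = 0.00600) fell too. The myelin protein genes Mobp (0.79, adjusted p = 0.00233) and Mal (0.38, adjusted p = 0.0311) rose. The summed level of the 15 markers lay between 2934 and 3207 CPM in Control and between 2786 and 3393 CPM with EtOH, so the groups overlapped on that measure. Of 9 markers of oligodendrocyte precursors, Gpr17 (-1.07, adjusted p = 0.0267) and Bmp4 (-0.93, adjusted p = 0.0391) fell, and 0 were called lower without Control replicate 1 or 3 or EtOH replicate 2 or 3.

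Among astrocyte markers 3 of 14 were higher and 1 was lower, with a median log2 fold change of 0.02, where 9.04% and 8.60% of all transcripts were called. The higher count was 1 without any one of the Control libraries and 4 without EtOH replicate 4, and the lower count ranged from 0, without Control replicate 2 or 3 or EtOH replicate 2, to 3, without EtOH replicate 3. The gap junction protein Gjb6 rose from 54.3, 36.7 and 46.9 CPM to 70.6, 71.7, 70.1 and 72.1 CPM (0.63, adjusted p = 0.00639), and the transcription factor Sox9 rose slightly (0.43, adjusted p = 0.0290). Gfap, the filament protein of reactive astrocytes, was called (0.75, adjusted p = 0.0373), but stood at 168, 107, 183 and 79.5 CPM with EtOH against 83.1, 80.9 and 75.1 CPM in Control, so that the groups overlapped, and the call was lost without any one of the Control libraries or without EtOH replicate 1 or 3. The water channel Aqp4 fell (-0.41, adjusted p = 0.0244). Fabp7, a fatty acid carrier of astrocytes and progenitors that is not in the list, fell from 18.3, 20.4 and 29.4 CPM to 6.44, 3.69, 5.23 and 7.42 CPM (-2.001, adjusted p = 3.22e-04).

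Vascular markers also moved both ways, in counts to be read against the 9.04% of all transcripts called higher and the 8.60% called lower. Among 14 endothelial markers the glucose transporter Slc2a1 (0.69, adjusted p = 0.0110) and the lipid transporter Mfsd2a (0.92, adjusted p = 0.0116) rose, while the angiopoietin receptor Tek (-0.99, adjusted p = 0.0139), Itm2a (-0.74, adjusted p = 0.0165) and the VEGF receptor Flt1 (-0.45, adjusted p = 0.0387) fell. These counts were unsteady, with 6 higher without EtOH replicate 4, 0 higher without Control replicate 3 and 0 lower without Control replicate 2, and the median of the 14 markers against the Control mean ran from 0.46 in EtOH replicate 1 to -0.30 in EtOH replicate 4 on the log2 scale. Of 10 mural cell markers 4 fell: Rgs5 (-0.58, adjusted p = 0.00390), Anpep (-1.25, adjusted p = 0.0106), Atp13a5 (-0.89, adjusted p = 0.0138) and Abcc9 (-0.57, adjusted p = 0.0353), of which 2 were left without Control replicate 1 or 2. Of 7 fibroblast markers the collagen genes Col1a1 (-2.30, adjusted p = 0.00253), Col3a1 (-1.21, adjusted p = 0.0246) and Col1a2 (-0.76, adjusted p = 0.0205) fell, the last with overlap, and 1 of the 7 was called lower without Control replicate 1 or 2 or EtOH replicate 2 and in the fit over 11 libraries. Tnnc1, the slow muscle troponin C, which overlaps Nisch on the other strand, fell from a mean of 9.17 ± 0.690 CPM in the 3 Control libraries (SD) to 2.40 ± 0.909 CPM in the 4 EtOH libraries. The vascular peptide apelin, Apln, fell from 14.4, 22.3 and 17.1 CPM to 3.78, 3.82, 4.35 and 8.07 CPM (-1.86, adjusted p = 7.98e-04). Transporters of the blood-brain barrier split likewise, with 4 of 15 higher and 3 lower. Those higher were 1 without Control replicate 3, 2 without Control replicate 1 and up to 5 otherwise, those lower 2 or 3, and the fit over 22 libraries called 0. The transferrin receptor Tfrc (0.59, adjusted p = 0.00824) and the taurine transporter Slc6a6 (0.66, adjusted p = 0.0159) rose beside Slc2a1 and Mfsd2a, while the thyroid hormone transporter Slco1c1 (-1.29, adjusted p = 0.00854), the organic anion transporter Slc22a8 (-1.25, adjusted p = 0.00172) and the receptor Lrp8 (-0.43, adjusted p = 0.0114) fell. Ttr was called among 4 markers of choroid plexus and ependyma, but its decrease rested on Control replicate 2, without which the log2 fold change was -0.77 and was not called.

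Calls among neuronal markers varied by list, to be read beside the same shares of all transcripts. Of 8 excitatory markers 1 rose, the transcription factor Neurod2 (0.66, adjusted p = 0.00234), and 3 fell, among them Neurod6 from 96.9, 98.2 and 108 CPM to 47.3, 52.1, 66.4 and 37.5 CPM (-0.99, adjusted p = 0.00159) and the calmodulin-binding protein Nrgn (-0.58, adjusted p = 0.0139). Those lower were 1 without Control replicate 1, 2 without Control replicate 2 and 3 or 4 without another library, and Nrgn was called in 5 of the 7 fits that left a library out. Of 7 upper layer markers Lamp5 fell (-0.62, adjusted p = 0.00250), of 10 deep layer markers Pcp4 fell (-0.54, adjusted p = 0.0214), and of 11 markers of inhibitory neurons Gad2, which makes GABA, rose (0.40, adjusted p = 0.0291). Pcp4 was called in 3 and Gad2 in 4 of the 7 fits without a library, and the fits over 11 and 22 libraries called no marker of either list. Of 11 striatal markers Ppp1r1b (0.67, adjusted p = 0.00996) and Tac1 (0.66, adjusted p = 0.0109) rose. Striatal markers called higher were 1 to 3 when 1 library was left out, and 2 and 0 in the fits over 11 and 22 libraries. Haemoglobin genes and Alas2, as markers of blood, gave 0 calls of 5 in edgeR's quasi-likelihood test, with 1 at an unadjusted p under 0.05 and 1 each by exactTest and DESeq2. All 5 log2 fold changes were below 0, between -0.73 and -0.14, and up to 3 were called lower when 1 library was left out. Hbb-bs stood at 61.96, 33.1 and 65.8 CPM in Control and at 40.8, 48.04, 70.2 and 35.5 CPM with EtOH and Hba-a1 at 25.5, 13.9 and 20.8 CPM and 9.15, 13.1, 18.5 and 7.42 CPM, so that the groups overlapped in both.

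**Figure D4:**
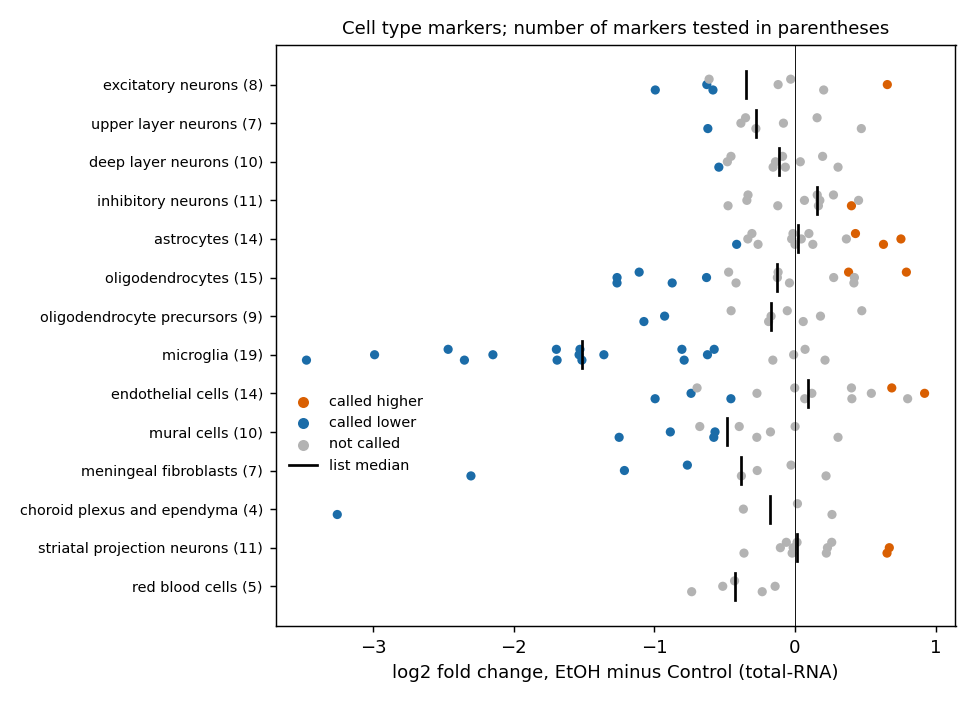
Each point is one marker gene, with its log2 fold change (EtOH minus Control, total-RNA) on the x axis and its cell type on the y axis; orange and blue points were called higher and lower, grey points were not called, and black bars are list medians. The microglial median lies at -1.51, and the medians of the other 13 lists lie between -0.48 and 0.16.

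Both cold-inducible RNA-binding proteins rose. Cirbp, which binds and stabilises messenger RNAs, stood at 34.1, 29.1 and 22.9 CPM in Control and at 94.2, 106, 86.6 and 48.99 CPM with EtOH (log2 fold change 1.55, SE 0.22, adjusted p = 0.00103). Rbm3, which protects synapses in cooled animals, stood at 45.9, 32.8 and 29.4 CPM and 97.5, 90.3, 95.3 and 69.7 CPM (1.29, SE 0.16, adjusted p = 5.61e-04), and has an antisense partner. EtOH replicate 4 was the lowest EtOH library for both and still lay above Control. Of 22 heat shock chaperones 9 were lower, where 8.60% of all transcripts were, with a median log2 fold change of -0.21. The list was not uniform, since 8 of the 22 had values above 0, up to 0.69. Of these 0 were called, with 1 called higher without EtOH replicate 4. Between 5 and 9 were lower when 1 library was left out, with 5 without Control replicate 2 or 3, and the fits over 11 and 22 libraries gave 6 and 0. The HSP110 protein Hsph1 fell from 294, 303 and 348 CPM to 148, 121, 203 and 218 CPM (-0.87, adjusted p = 0.00556), and the HSP90 partners Ahsa1 (-0.53, adjusted p = 0.00578) and Fkbp4 (-0.49, adjusted p = 0.00603) and the HSP40 protein Dnaja4 (-0.60, adjusted p = 0.00896) fell too. The HSP90 partner Chordc1, named after its value was seen, fell most (-1.20, adjusted p = 0.0166). Body temperature was not among the data used here.

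Genes of the endoplasmic reticulum stress response split between 3 higher and 6 lower of 18, where 9.04% and 8.60% of all transcripts were called. Leaving out a library gave 1 to 3 higher, with 1 without Control replicate 2, and 4 to 9 lower, with 4 without any one of the Control libraries, and the fit over 22 gave 0 and 1. The protein disulfide isomerases Pdia4 (-0.80, adjusted p = 0.00117) and Pdia6 (-0.69, adjusted p = 0.00127), the chaperone Calr (-0.60, adjusted p = 0.00458) and the co-chaperone partner Sdf2l1 (-0.92, adjusted p = 0.00604) fell, while Herpud1 (0.58, adjusted p = 0.00615), Dnajb9 (0.57, adjusted p = 0.00709) and Sesn2 (0.66, adjusted p = 0.0239), which take part in protein disposal, folding and nutrient sensing, rose. The main chaperone of this compartment, Hspa5, named after its value was seen, was not called (-0.31, adjusted p = 0.111). Cholesterol synthesis was lower in 10 of 23 genes, where 8.60% of all transcripts were, with a median of -0.45. Leaving out 1 library gave 4 to 11 lower, with 4 without Control replicate 1 or 2, and the fits over 11 and 22 libraries gave 4 and 1. Srebf2, its master transcription factor, fell from 198, 236 and 179 CPM to 128, 131, 132 and 123 CPM (-0.67, adjusted p = 0.00175), and the enzymes Hmgcs1 (-0.67, adjusted p = 0.00401) and Sqle (-0.65, adjusted p = 0.0103) fell. Lss, lanosterol synthase, rose (0.46, adjusted p = 0.0413). The antioxidant genes Nqo1 (0.98, adjusted p = 0.0110), Gclc (0.37, adjusted p = 0.0428) and Gclm (0.36, adjusted p = 0.0334) rose, 3 of 15 where 9.04% of all transcripts did, and were 0 without Control replicate 3 and in the fit over 22 libraries. Of 10 genes of ethanol and acetate metabolism the acetyl-CoA synthetases Acss1 (-0.55, adjusted p = 0.0321) and Acss2 (-0.47, adjusted p = 0.0342) fell, where 8.60% of all transcripts did. Both calls were weak, since Acss1 was called in 1 and Acss2 in 2 of the 7 fits that left a library out, and the fits over 11 and 22 libraries called 0 of the 10.

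Of 18 circadian clock genes 6 were called higher, where 9.04% of all transcripts were, with 4 to 8 when 1 library was left out and 0 in the fit over 22. Per1, which is also a glucocorticoid target, went from 41.98, 37.8 and 31.3 CPM to 71.01, 138, 154 and 57.3 CPM (1.505, adjusted p = 0.00487), and was highest in EtOH replicates 2 and 3. The repressors Cry2 (0.71, adjusted p = 0.00381) and Bhlhe41 (0.75, adjusted p = 0.00111) and the output factor Tef (0.83, adjusted p = 0.00564) rose. The repressor Ciart was called with overlap (1.29, adjusted p = 0.0185) and Per2 was not called (0.16, adjusted p = 0.697), both named after their values were seen. Immediate early genes, which report recent neuronal activity, gave 5 higher and 2 lower of 26, the latter a share near the 8.60% of all transcripts and the former to be set beside 9.04%. The fit over 22 libraries gave 1 and 0. Leaving out 1 library gave 2 to 7 higher, with 2 without Control replicate 2, and 1 to 7 lower, with 7 without EtOH replicate 1. The rises were in Maff (3.39, adjusted p = 5.77e-04), Junb (1.06, adjusted p = 0.0133), Sik1 (1.01, adjusted p = 0.0120) and Dusp1 (0.88, adjusted p = 0.0125), with the fifth in Btg2 (0.60, adjusted p = 0.0410), named after its value was seen, and the falls in the activin subunit Inhba (-1.37, adjusted p = 0.00452) and Homer1 (-0.40, adjusted p = 0.0413). Sik1 and Junb overlapped with Control in EtOH replicate 4. The classic activity markers, named after their values were seen, were not called: Fos stood at 22.6, 12.2, 30.98 and 3.53 CPM with EtOH against 13.6, 9.62 and 12.4 CPM in Control, and Arc (-0.69, adjusted p = 0.0892), Egr1 (-0.62, adjusted p = 0.0840) and Npas4 (-0.82, adjusted p = 0.296) had values below 0. The phosphatases Dusp1 and Dusp5 (1.14, adjusted p = 0.00716) were the 2 called of 9 MAP kinase phosphatases, where 9.04% of all transcripts were called higher. These 2 became 1 to 3 when 1 library was left out, and were 2 and 0 in the fits over 11 and 22 libraries.

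In insulin and IGF signalling 9 of 31 genes rose, where 9.04% of all transcripts did, and 3 fell, a share near the 8.60% of all transcripts. The 3 were 2 to 6 when 1 library was left out, with 6 without EtOH replicate 4, and 2 and 1 in the fits over 11 and 22 libraries. The 9 were 2 without Control replicate 1 or 2, 4 without Control replicate 3, 4 in the fit over 11 libraries and 0 over 22. Irs2, the adaptor of the insulin receptor, which overlaps 9530052E02Rik on the other strand, went from 74.4, 70.7 and 65.6 CPM to 142, 162, 132 and 105 CPM (0.95, adjusted p = 9.79e-04), and the phosphatase Inpp5k (0.60, adjusted p = 0.00726) and the binding protein Igfbp3 (0.57, adjusted p = 0.0194) rose. The adaptor Irs4, named after its value was seen, was at 0.0421, 0.418 and 0.919 CPM in Control and 7.17, 0.987, 0.954 and 2.29 CPM with EtOH (2.57, adjusted p = 0.0384), an increase carried mostly by EtOH replicate 1 and called in 3 of the 7 fits that left a library out. Akt2, a kinase below the receptor, fell from 56.9, 70.2 and 56.8 CPM to 34.4, 28.5, 31.5 and 26.5 CPM (-1.02, adjusted p = 4.63e-04), together with Igfbp2 (-0.83, adjusted p = 0.00305) and Igfbp6 (-0.66, adjusted p = 0.0113). Of 18 genes that control mTOR 5 rose, where 9.04% of all transcripts did, with 3 without any one of the Control libraries or EtOH replicate 3, 3 in the fit over 11 libraries and 1 over 22. Among the 5 were the inhibitors Ddit4, Sesn1 (0.81, adjusted p = 6.97e-04), Sesn2 and Castor1 (1.55, adjusted p = 0.00305). The paralogue of Ddit4, Ddit4l, was the 1 that fell, from a mean of 23.2 ± 0.162 CPM in the 3 Control libraries (SD) to 6.66 ± 1.43 CPM in the 4 EtOH libraries, so that these related inhibitors changed in opposite directions. Of 14 members of the PARP family, the enzymes that ABT-888 is aimed at, Parp1 (-0.48, adjusted p = 0.0356) and Parp11 (-0.75, adjusted p = 0.00909) fell, where 8.60% of all transcripts did. Parp1 was called in 2 of the 7 fits that left a library out, no member was called without Control replicate 3, and the fits over 11 and 22 libraries called 0.

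Receptors and channels of neurons gave few calls each, to be read against the 9.04% of all transcripts called higher and the 8.60% called lower. The GABA-A receptor subunit Gabra2 fell from 60.9, 59.5 and 80.1 CPM to 23.9, 26.6, 40.5 and 48.1 CPM (-0.95, adjusted p = 0.00996) and Gabrd fell by less (-0.37, adjusted p = 0.0422), while Gabrg1 rose (0.64, adjusted p = 0.00609), the 3 called of 13. Of 15 ionotropic glutamate receptors Gria1 rose (0.30, adjusted p = 0.0354) and Gria4 fell (-0.58, adjusted p = 0.00610), in each direction a share at or below that of all transcripts. These counts were 0 or 1 higher and 1 to 3 lower when 1 library was left out, with 3 lower without EtOH replicate 4. Of 7 metabotropic glutamate receptors Grm3 fell from 221, 231 and 205 CPM to 105, 115, 128 and 125 CPM (-0.89, adjusted p = 3.22e-04), and Grm2 (-0.80, adjusted p = 0.00652) and Grm8 (-0.54, adjusted p = 0.0476), both presynaptic receptors that limit release, fell too, Grm8 with a call in 1 of the 7 fits that left a library out. Among 29 voltage-gated potassium channels 2 rose, Kcna1 (0.53, adjusted p = 0.00712) and Kcna5 (0.71, adjusted p = 0.0360), and 5 fell, with Kcnv1 (-1.06, adjusted p = 5.69e-04), Kcna6 (-0.87, adjusted p = 0.00263), Kcng4 (-0.94, adjusted p = 0.0285) and Kcng1 (-0.46, adjusted p = 0.0374) the smallest in p. Leaving out 1 library gave 2 to 10 lower potassium channels, with 10 without EtOH replicate 4, and 0 to 5 lower GABA-A subunits, with 0 without Control replicate 3. The serotonin receptors Htr2c (0.78, adjusted p = 0.00323) and Htr2a (-0.63, adjusted p = 0.00551) moved in opposite directions, the only ones called of 11.

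The called genes of the opioid system were all higher. The kappa receptor Oprk1 went from 12.1, 18.5 and 19.8 CPM to 25.8, 54.3, 23.8 and 37.9 CPM (1.08, adjusted p = 0.0157), its ligand precursor Pdyn rose (0.55, adjusted p = 0.0157), and the nociceptin receptor Oprl1 rose (0.56, adjusted p = 0.0103), 3 of 7 genes, where 9.04% of all transcripts did. The calls were 0 without Control replicate 2, 1 without Control replicate 1, and 0 in the fit over 22 libraries. Oprk1 and Pdyn were, like the striatal markers, higher in TRAP of the EtOH + ABT-888 mice (log2 ratios 1.85 and 2.24). EtOH replicate 2 had the most Oprk1, the highest median of the opioid list (0.64 above the Control mean on the log2 scale, against 0.22 to 0.28 in the other EtOH libraries) and the highest of the 11 striatal markers (0.63, against -0.01 to 0.01). The part of striatal RNA in these values was not tested. Among 15 neuropeptides Pdyn, Tac1 and, with overlap, Nts (1.26, adjusted p = 0.0458) rose and Cck (-0.88, adjusted p = 0.00979), Cort (-1.27, adjusted p = 0.00807) and Adcyap1 (-0.64, adjusted p = 0.0287) fell, beside 9.04% and 8.60% of all transcripts. The rises were 0 without Control replicate 2 and 1 without Control replicate 1, the falls were 2 to 5 with 5 without EtOH replicate 3, and the fit over 22 libraries called 0. Of 60 axon guidance genes 15 fell, where 8.60% of all transcripts did, and 5 rose, a share near the 9.04% of all transcripts. The 5 were 2 without any one of the Control libraries or EtOH replicate 2, 7 without EtOH replicate 4, and 2 and 0 in the fits over 11 and 22 libraries. Between 7 and 22 were lower when 1 library was left out, with 7 without Control replicate 1 or 2 and 22 without EtOH replicate 4, and the fits over 11 and 22 libraries gave 5 and 2. The receptor Robo3, at 2.78, 3.45 and 2.31 CPM in Control and 0.384, 0.478, 1.12 and 1.05 CPM with EtOH (-1.95, adjusted p = 0.00393), the ligands Slit2 (-0.87, adjusted p = 0.00346) and Sema7a (-0.85, adjusted p = 0.00230) and the receptor Ephb6 (-0.83, adjusted p = 0.00177) fell, while the ligands Efna1 (1.28, adjusted p = 0.00449), Sema4c (0.62, adjusted p = 0.0197), Sema4b (0.51, adjusted p = 0.0310) and Slit1 (0.45, adjusted p = 0.0334) rose. Splicing regulators split into 4 higher and 5 lower of 18, beside 9.04% and 8.60% of all transcripts. With 1 library left out there were 2 to 6 higher and 1 to 5 lower, and the fits over 11 and 22 libraries gave 0 higher and 1 lower each. The higher ones were the factor Srsf5 (1.02, adjusted p = 0.00228) and the kinase Clk4 (0.77, adjusted p = 0.00384), followed by Srsf2, with overlap (0.503, adjusted p = 0.0306), and Clk1 (0.42, adjusted p = 0.0395). The lower ones were led by the kinase Srpk1, from 84.7, 85.5 and 87.2 CPM to 39.3, 24.7, 41.7 and 52.4 CPM (-1.12, adjusted p = 0.00206), with Srsf11 (-0.48, adjusted p = 0.0152), Srsf7 (-0.46, adjusted p = 0.0139) and Tra2a (-0.52, adjusted p = 0.0290) next in p.

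Lists of protein synthesis and respiration gave few calls. Of 41 cytosolic ribosomal protein genes 0 were called by edgeR's quasi-likelihood test, with 4 at an unadjusted p under 0.05, 0 by exactTest and 1 by DESeq2, and their log2 fold changes lay between -0.27 and 0.27. Its most abundant members were Rpl4 (0.18) and Rps15 (-0.10). Of 13 mitochondrially encoded genes 0 were called, with 1 at an unadjusted p under 0.05, 0 by exactTest and 1 by DESeq2, and mt-Co1 (0.28) and mt-Cytb (-0.10) were the most abundant. When 1 library was left out, up to 2 of the 13 were called higher, and up to 1 of the 41 ribosomal protein genes. Of 39 nuclear genes of the respiratory chain, Atp5d (-0.48, adjusted p = 0.0169) and Ndufs8 (-0.40, adjusted p = 0.0423) fell, a share below the 8.60% of all transcripts, with Ndufs8 called in 1 of the 7 fits that left a library out. The count lower was 0 without Control replicate 1 or 2 and 6 without EtOH replicate 3.

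The division of these transcripts between the fractions can be read from libraries outside the comparison. In the 4 mice given EtOH with ABT-888, TRAP was compared with total-RNA of the same homogenates, and 19.5% of all transcripts were called more abundant in TRAP and 21.5% less abundant than in the unselected supernatant. All 11 striatal markers were higher in TRAP, while 6 of 8 excitatory markers were lower, so that a value below 0 does not by itself mark a transcript as foreign to CaMKIIα cells. All 15 oligodendrocyte markers, 13 of 14 astrocyte markers and 15 of 19 microglial markers were lower in TRAP. Of the transcripts called higher with EtOH in total-RNA, 25.0% were lower in TRAP and 19.97% higher, and of those called lower with EtOH, 31.2% were lower in TRAP and 14.7% higher. Among the changes of 1 log2 unit or more the shares lower in TRAP were 38.0% of the 297 that rose and 42.3% of the 182 that fell. Both the largest rises and the largest falls thus held larger shares of transcripts depleted from TRAP than transcripts as a whole, with median log2 ratios of -0.43 and -1.47 against 0.05. These rises and falls also had lower median levels (3.49 and 5.86 CPM against 21.5 CPM). They held more long noncoding RNAs (9.43% and 9.89% against 2.93%). The part of level and kind of transcript in these shares was not tested. Of the 30 glucocorticoid-induced genes 17 were lower in TRAP and 2 higher. For single genes the log2 ratio of TRAP over total-RNA was -3.31 for Lcn2, -3.18 for Agt and -2.84 for Apod among the rises, and -3.15 for P2ry12 among the falls, beside 0.71 for Fkbp5, all called. The ratios of Cx3cr1 (-2.73, adjusted p = 0.0794), Per1 (0.55, 0.464), Srpk1 (0.17, 0.692) and Akt2 (0.505, 0.104) were not called in this fit, which did not pair the fractions by mouse.

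**Figure D5:**
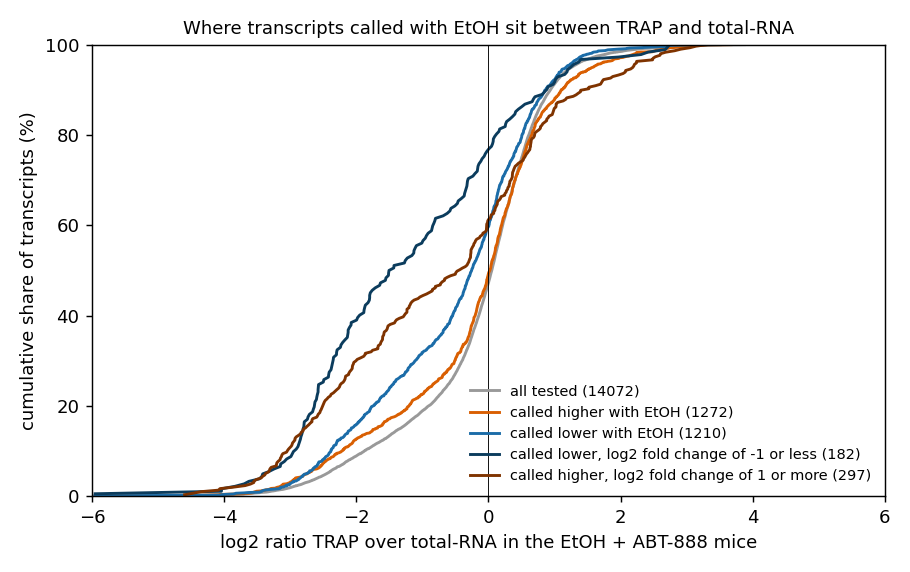
Lines give the cumulative share of transcripts (y axis, %) up to a given log2 ratio of TRAP over total-RNA (x axis) in the 4 EtOH + ABT-888 mice, for all tested transcripts and for those called higher or lower with EtOH in total-RNA, with the number of transcripts in parentheses. The line of the 182 largest decreases lies farthest to the left, with a median of -1.47.

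For the same mice the TRAP libraries give the EtOH difference in the tagged fraction, where 2.77% of transcripts were called higher and 2.47% lower. That count, 737, fell to between 84 and 112 without any one Control library and was 1550 without EtOH replicate 4. The 2 fractions come from the same animals and so are no independent test of each other. In TRAP, 11 of the 30 glucocorticoid-induced genes were called higher, with log2 fold changes of 0.95 for Sgk1 (adjusted p = 0.00672), 1.03 for Fkbp5 (adjusted p = 0.00415) and 1.28 for Irs2 (adjusted p = 0.0141), beside 1.88, 1.74 and 0.95 in total-RNA. Cirbp (1.75, adjusted p = 0.00881) and Rbm3 (1.55, adjusted p = 0.00545) rose in TRAP as well. Of the microglial markers P2ry12 (-3.46, adjusted p = 0.0113) was called lower there, at 2.14 to 5.14 CPM in Control and at most 0.534 CPM with EtOH, and so was Fcrls (adjusted p = 0.0463), which was close to the detection limit in TRAP, at 0.933, 1.18 and 2.04 CPM in Control and 0, 0, 0.243 and 0.200 CPM with EtOH, so that no fold is given. In addition, Ddit4l (-2.60, adjusted p = 0.00226), Srpk1 (-1.68, adjusted p = 0.00221) and Akt2 (-0.72, adjusted p = 0.0185) fell in both fractions. Other lists had calls of another direction in TRAP. Immediate early genes gave 1 higher and 6 lower there (median -0.47) beside 5 and 2 in total-RNA, and cholesterol synthesis 2 higher and 0 lower beside 1 and 10. Whether a change differs between the fractions was not tested.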

How the data were processed

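Total-RNA and TRAP-RNA of the PFC were sequenced from 11 mice (22 libraries), and each library of a group came from a separate animal, as the labels give it. The authors depleted ribosomal RNA, made libraries with the CORALL kit, sequenced paired reads of 50 bases, aligned them with STAR to mm10 and counted reads per ENSEMBL gene with featureCounts. The deposited values are raw counts of 39056 genes, and every value printed here was computed from these counts. Versions and the strand setting are not given in the sources used here.

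Genes with at least 500 counts over the 22 libraries and a count in at least 3 were kept (14072). EtOH_total-RNA (n = 4) and Control_total-RNA (n = 3) were compared with edgeR 4.0.16 (quasi-likelihood test, TMM factors, R 4.3.3), two-sided, with Benjamini-Hochberg adjustment over all genes kept. CPM were scaled with the TMM factors of the libraries compared. EtOH_TRAP against Control_TRAP, and TRAP against total-RNA in the EtOH + ABT-888 mice, were fitted likewise, and in the last both fractions carry the same animal numbers in the labels. edgeR's exactTest, DESeq2 1.42.0, other filters, scalings, sets of libraries and thresholds were tried as alternatives. The procedure was tested on simulated data. Gene positions came from GENCODE M21 (38872 of 39056 genes matched) and promoters from RefSeq.

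Named were the 12 called genes with the largest and the 12 with the smallest log2 fold change among those without overlap and with at least 5 CPM, the 3 with the smallest p in each direction, and up to 4 called members of each list and direction. Other genes are marked as named after their values were seen, and a few that the rule names are not reported here. The groups, gene lists and rules were chosen with earlier results of these data known.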

Additional observations from a re-analysis of the deposited data

Results flagged for a closer look

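In a group of 4 libraries, a value was singled out when the gap of the highest or lowest library to its nearest neighbour took up more of the whole range than Dixon's critical value for 4 values allows. Of 213 groups checked 14 passed, and chance alone gives about 1 in 20.

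EtOH replicate 4 stood apart for Gpr34 (ratio 0.932, range 0.764 to 3.57 CPM), Apln (0.866, 3.78 to 8.07 CPM), Dnaja4 (0.855, 27.4 to 38.2 CPM) and Srsf2 (0.883, 47.9 to 73.5 CPM). In the first 3 it was the EtOH library nearest to Control, and in Srsf2 it lay within the Control values.

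EtOH replicate 1 stood apart for Ccl2 (0.835, 0 to 19.3 CPM), Sdf2l1 (0.85, 3.32 to 4.55 CPM) and the summed deep layer neuron markers (0.844, 639.6 to 813 CPM). EtOH replicate 2 did so for Sgk1 (0.95, 199 to 267 CPM), Aif1 (0.878, 1.11 to 2.04 CPM) and Gpd1 (0.83, 61.1 to 72.1 CPM). EtOH replicate 3 did so for Hspa5 (0.891, 196 to 276 CPM), Acss2 (0.894, 22.4 to 31.1 CPM), Cx3cl1 (0.887, 402 to 488 CPM) and Hmgcs1 (0.848, 177 to 256 CPM). Without EtOH replicate 2, Sgk1 kept its call.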

How the results depend on the processing

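The number of genes called in total-RNA was 3009 with exactTest, 3106 with DESeq2, 2486 with RLE factors, 2578 with filterByExpr and 3436 without a filter, beside 2482. It was 1033 (565 higher, 468 lower) in a fit over the 11 total-RNA libraries, 151 (105 higher, 46 lower) in a fit over all 22, and 802 (417 higher, 385 lower) at an adjusted p under 0.01. The cause was not tested. Leaving out 1 library gave 878 to 3616 calls (461 to 1743 higher, 417 to 1873 lower), with the lowest counts without a Control library and the highest without EtOH replicate 4. In the fit over 22 libraries 16 glucocorticoid-induced genes were called higher and 2 microglial markers lower, and leaving out 1 library gave 23 to 28 and 12 to 15. Of the 169 called genes named, none changed direction under any of these settings, and 169 kept the call with exactTest, 166 with DESeq2, 110 and 34 in the fits over 11 and 22 libraries, and 107 to 168 without 1 library.

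EtOH_TRAP against Control_TRAP gave 737 calls, 1372 with exactTest, 1487 with DESeq2, 1472 without a filter and 84 to 1550 without 1 library. Direction changed for genes that were not called: without 1 library the log2 fold change ranged from -0.12 to 0.24 for C1qa, from -0.24 to 0.18 for C1qb, from -0.32 to 0.00147 for C1qc, from -9.34e-06 to 0.38 for Ctss, from -0.394 to 0.0353 for Hbb-bs and from -0.293 to 0.0496 for mt-Cytb, and C1qb stood at 0.000214 with filterByExpr.

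With the mouse as a replicate block, TRAP against total-RNA in the EtOH + ABT-888 mice gave 7643 calls beside 5769, and the shares lower in TRAP were 31.6% of the transcripts called higher with EtOH and 43.1% of those called lower, where 27.9% of all transcripts were. Leaving out 1 library gave 4544 to 5939 calls. No paired analysis was possible for EtOH against Control because the groups hold different mice.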
